A study of Mus musculus with 12 samples.

Results

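The 10 genes described here are Aldh1l1, S100b, Mlc1, Hepacam, Mfge8, Cldn10, F3, Itih3, Bmpr1b and Htra1, a set of genes used to identify astrocytes, together with the gene whose promoter drives the ribosome tag of the mouse (Aldh1l1). They were chosen by name, as were the other gene lists below, with earlier results of these data known. They were found through the gene symbols of their Ensembl identifiers among the 41388 gene identifiers of the count files. All 10 were present, and all 10 passed the filter on low counts that left 13364 genes for testing.

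Astrocytes are the glial cells that take up transmitter and potassium around synapses, cover blood vessels with their endfeet and supply neurons with metabolites. Their messages are translated in the cell body and also in the fine processes that reach synapses. Translating ribosome affinity purification (TRAP) recovers ribosomes that carry a tagged protein, here the ribosomal protein RPL10a fused to eGFP, by immunoprecipitation of GFP, together with the RNA bound to them, and the bacterial artificial chromosome that carries the tag puts it under the Aldh1l1 promoter.

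RNA was sequenced from 12 libraries in 4 groups of 3. PAP TRAP (peripheral astrocyte process TRAP) is the GFP immunoprecipitate of a synaptoneurosome fraction, a sucrose gradient layer of pinched-off synapses and adjoining processes. Cortex TRAP is the GFP immunoprecipitate of tissue, synaptoneurosome input is the fraction before immunoprecipitation, and cortex input is the tissue before immunoprecipitation. The mice of every group were C57/Bl6 carriers of the Aldh1L1::RPL10a-eGFP transgene at an age of 21 postnatal days, with cortex and hippocampus as the tissue, and every group was treated with cycloheximide at 1 ug/mL and TTX at 1 mM, so no group lacked the tag. The labels give 1 extract protocol for all libraries, which describes the fraction, so how the cortex libraries were handled is known from their source names alone. Nothing in the labels says whether the 3 libraries of a group came from separate animals, so the p-values measure the spread between these libraries, which may be technical.

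Both immunoprecipitates held astrocyte messages, and other cells were also represented. The 10 defining astrocyte markers (such as Gfap, Aqp4 and Slc1a2) took 4.82% to 9.43% of nuclear gene counts in PAP TRAP, 6.87% to 10.1% in cortex TRAP, then 4.02% to 4.84% in synaptoneurosome input, and 0.799% to 0.881% in cortex input. Slc1a2 had by far the highest level of the 10, with a mean of 29400 normalized CPM (explained below) in PAP TRAP and 22977 in cortex TRAP. Glul, the next, had 2518 and 6038. The lowest PAP TRAP share lay below the highest synaptoneurosome input share. At an edgeR adjusted p under 0.05, 3 of the 10 were higher in PAP TRAP than in its input (3.0% of all genes). Against cortex TRAP 8 of 10 were lower (14.6% of all genes). The labels call the cell type of every library astrocytes, but the 14 neuron markers took 0.588% to 0.904% in PAP TRAP, 0.206% to 0.318% in cortex TRAP, 1.24% to 1.70% in the synaptoneurosome input and 1.96% to 2.15% in cortex input. Nuclear gene counts ranged from 1423296 to 7777763 per library, lowest in the synaptoneurosome inputs, and mitochondrial transcripts took 1.03% to 91.9% of gene counts. PAP TRAP replicate 2 stood apart from its group: its defining astrocyte markers took 9.43%, against 4.82% in replicate 1 and 6.29% in replicate 3, and its neuron markers 0.588%, against 0.904% and 0.860%. It was the highest PAP TRAP library for 9 of the 10 genes, all but Htra1, so results that rest on it are also given without it.

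**Figure D1:**
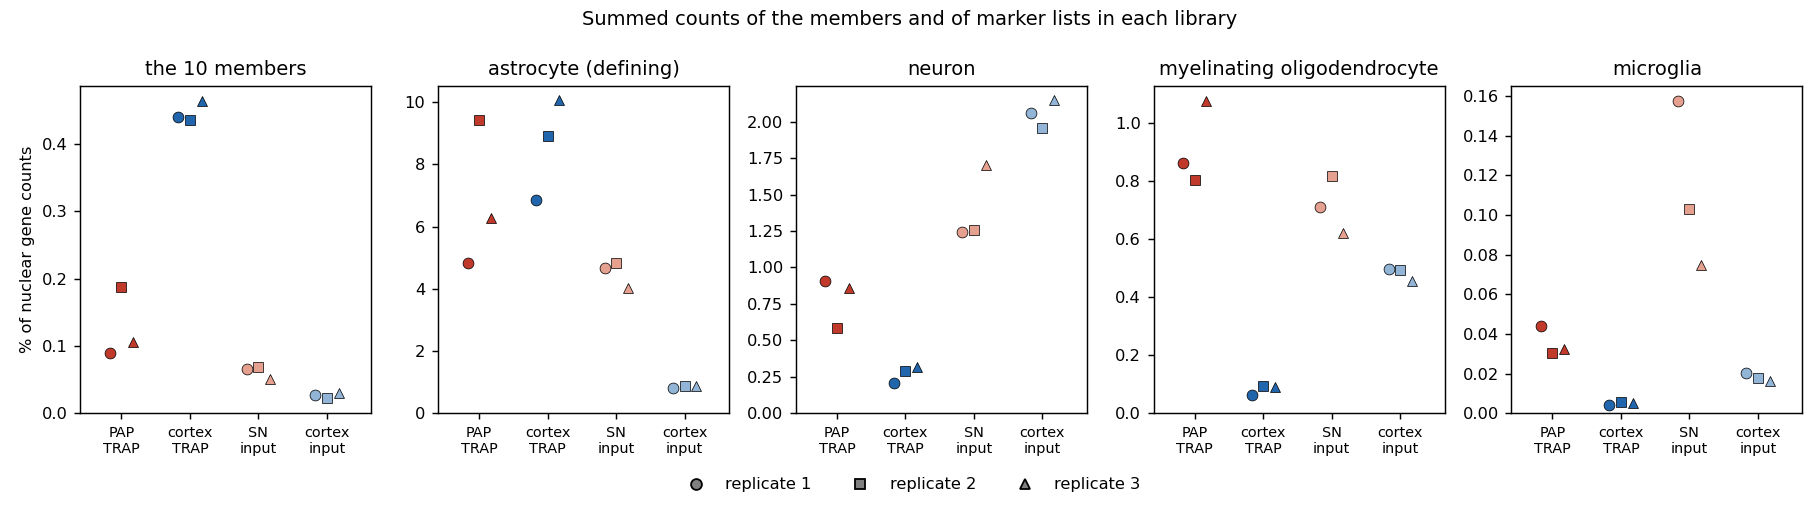
Summed counts of the 10 genes and of 4 marker lists, as a percentage of nuclear gene counts (vertical axes start at 0), with 1 point per library and shapes for the replicates (SN, synaptoneurosome). The 10 genes took 0.0900% to 0.187% in PAP TRAP, 0.436% to 0.464% in cortex TRAP, 0.0508% to 0.0690% in the synaptoneurosome input and 0.0230% to 0.0298% in cortex input.

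The promoters of 3 genes are shown because 1 of them drives the tag and the other 2 belong to the genes with the highest levels per length in the immunoprecipitates. Each is the 250 bases before a RefSeq transcription start (GRCm38.p6), 5′ to 3′ on the strand of the gene, with capitals on every match, on either strand, to TTGGC (the core of the nuclear factor I, NFI, motif), to ACAAT (the SOX core) or to TTCNNNGAA (the STAT motif). The Aldh1l1 window, chr6:90550543-90550792 on the plus strand, lies inside the span of the gene in GENCODE M21 and holds none of these motifs. The S100b window, chr10:76253586-76253835 on the plus strand, holds the NFI core 3 times, and the Hepacam window, chr9:37367356-37367605 on the plus strand, which also lies inside the span of its gene, holds it 2 times.
Aldh1l1: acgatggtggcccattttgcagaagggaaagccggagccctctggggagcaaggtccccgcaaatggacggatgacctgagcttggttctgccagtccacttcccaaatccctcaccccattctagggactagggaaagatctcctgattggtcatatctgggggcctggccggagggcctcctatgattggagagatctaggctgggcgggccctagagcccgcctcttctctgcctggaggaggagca
S100b: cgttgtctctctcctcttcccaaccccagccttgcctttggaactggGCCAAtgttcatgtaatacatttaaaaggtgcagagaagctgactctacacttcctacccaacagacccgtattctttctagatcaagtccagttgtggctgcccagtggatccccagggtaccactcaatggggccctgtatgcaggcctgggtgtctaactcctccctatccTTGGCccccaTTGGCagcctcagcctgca
Hepacam: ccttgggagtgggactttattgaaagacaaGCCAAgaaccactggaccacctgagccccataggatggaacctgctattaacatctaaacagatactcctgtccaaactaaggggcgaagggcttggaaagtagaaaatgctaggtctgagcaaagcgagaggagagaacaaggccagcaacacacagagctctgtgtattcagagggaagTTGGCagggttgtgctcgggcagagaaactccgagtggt

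RefSeq lists 13 promoters for the 10 genes. The NFI core was found in 5 of them and in 41.5% of all 32851 promoters of the same length, the SOX core in 4 of 13 and in 27.7% of all, and the STAT motif in 0 of 13 and in 7.02% of all. The E-box CANNTG was found in 10 of 13 and in 66.2% of all promoters, and the TATA box TATAAA in 1 of 13 (of Bmpr1b) and in 12.4% of all. Motifs were counted separately, so a base can belong to more than 1 match. These matches describe letters in a window and do not show that a factor binds there.

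Levels differed widely between the genes. Compared per length, as normalized CPM (the share of a library in parts per 1e6, scaled by the TMM method) per kilobase of annotated exons, S100b was the highest of the set, with a mean level of 151 ± 75.8 in PAP TRAP and 279 ± 21.6 in cortex TRAP (SD, n = 3 each). Hepacam followed with 51.8 ± 24.4 in PAP TRAP and 207 ± 8.99 in cortex TRAP. Aldh1l1, though its promoter drives the tag, was among the lower ones, with 6.29 ± 2.08 in PAP TRAP and 18.2 ± 3.01 in cortex TRAP, rank 7 and rank 8 of the 10. Itih3 was the lowest in every group, with 1.88 ± 0.985 in PAP TRAP and 3.38 ± 1.72 in cortex TRAP. Mfge8 held rank 8 in PAP TRAP and rank 5 in cortex TRAP, and Bmpr1b rank 5 in PAP TRAP and rank 9 in cortex TRAP, but ranks 5 to 7 in PAP TRAP rest on Bmpr1b at 6.93 ± 2.74, Cldn10 at 6.55 ± 3.09 and Aldh1l1, which do not differ beyond their spread. With the longest annotated transcript as the length, Mfge8 held rank 5 in PAP TRAP and rank 4 in cortex TRAP, where its level moved to 62.9, against 31.2 by all exons, and Bmpr1b held rank 7 in PAP TRAP and rank 9 in cortex TRAP.

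**Figure D2:**
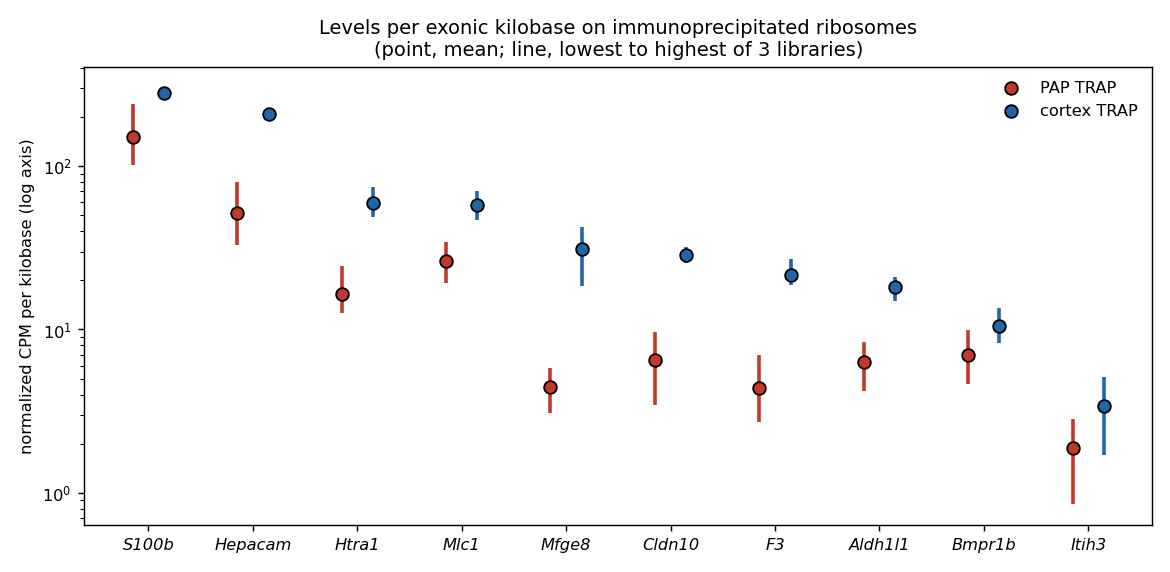
Normalized CPM per kilobase of annotated exons (log axis) of the 10 genes in PAP TRAP and cortex TRAP, where points are means of 3 libraries and lines run to the lowest and the highest library. S100b (151 in PAP TRAP, 279 in cortex TRAP) lay at the top and Itih3 (1.88 in PAP TRAP, 3.38 in cortex TRAP) at the bottom.

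The cytosolic members are Aldh1l1, which makes 10-formyltetrahydrofolate dehydrogenase, an enzyme of folate metabolism, and S100b, which makes a calcium-binding protein that astrocytes also release. Aldh1l1 (ENSMUSG00000030088, chr6:90486427-90600203, plus strand, GENCODE M21 on GRCm38) had 18.9, 37.7 and 28.7 normalized CPM in the PAP TRAP libraries, 83.7, 67.8 and 94.8 in cortex TRAP, 16.4, 11.3 and 4.05 in the synaptoneurosome input and 6.15, 5.12 and 11.1 in cortex input. All cortex TRAP libraries lay above all PAP TRAP libraries, these lay above all inputs, and the 2 kinds of input overlapped. An antisense transcript, Gm15756, shares 499 of the exonic bases of Aldh1l1, but it had 0 counts in each of the 12 libraries. S100b (ENSMUSG00000033208, chr10:76253853-76261159, plus strand) had 151, 354 and 168 normalized CPM in PAP TRAP, 407, 449.5 and 387 in cortex TRAP, 104, 78.5 and 82.0 in the synaptoneurosome input and 18.8, 21.4 and 27.8 in cortex input. No pair of groups overlapped, though PAP TRAP replicate 2 came close to the cortex TRAP libraries.

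Mlc1 and Hepacam encode membrane partners. MLC1 is a membrane protein of astrocyte junctions and endfeet whose loss causes a human leukoencephalopathy, and GlialCAM, the product of Hepacam, is an adhesion molecule that brings MLC1 and the chloride channel ClC-2 to cell contacts. Mlc1 (ENSMUSG00000035805, chr15:88955884-88979007, minus strand) had 53.7, 95.7 and 70.6 normalized CPM in PAP TRAP, 197, 131 and 154 in cortex TRAP, 21.6, 48.1 and 12.4 in the synaptoneurosome input and 8.42, 5.45 and 5.75 in cortex input. The groups did not overlap, but synaptoneurosome input spread from 12.4 to 48.1, close to PAP TRAP replicate 1. Hepacam (ENSMUSG00000046240, chr9:37367351-37386575, plus strand) had 110.2, 266 and 144 normalized CPM in PAP TRAP, 699, 660.0 and 719 in cortex TRAP, 63.8, 75.2 and 67.0 in the synaptoneurosome input and 26.1, 26.8 and 30.9 in cortex input. Its 4 groups were separate, and outside PAP TRAP its spread was small, with a coefficient of variation of 4.35% in cortex TRAP, against 47.2% in PAP TRAP.

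Of the other membrane proteins, Cldn10 makes a claudin, a protein of tight junctions, F3 makes tissue factor, the cell-surface protein that starts blood coagulation, and Bmpr1b makes a type I receptor for bone morphogenetic proteins (BMPs). Cldn10 (ENSMUSG00000022132, chr14:118787908-118875489, plus strand) had 8.95, 25.0 and 17.02 normalized CPM in PAP TRAP, 74.7, 82.3 and 65.9 in cortex TRAP, 7.90, 5.08 and 2.70 in the synaptoneurosome input and 1.05, 2.06 and 2.02 in cortex input. F3 (ENSMUSG00000028128, chr3:121723537-121735048, plus strand) had 6.85, 17.6 and 9.01 in PAP TRAP, 47.2, 47.4 and 68.0 in cortex TRAP, 4.25, 3.88 and 4.83 in the synaptoneurosome input and 3.99, 2.33 and 3.85 in cortex input. For Cldn10 all groups were separate, while for F3 the inputs overlapped. Bmpr1b (ENSMUSG00000052430, chr3:141837136-142169425, minus strand) had 27.5, 59.3 and 37.2 normalized CPM in PAP TRAP, 49.3, 80.3 and 57.4 in cortex TRAP, 28.6, 41.5 and 29.7 in the synaptoneurosome input and 8.03, 5.38 and 1.96 in cortex input. PAP TRAP overlapped both cortex TRAP and synaptoneurosome input, and the cortex inputs lay far below the other 3 groups.

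The secreted products are MFG-E8 (from Mfge8), which bridges phosphatidylserine on dying cells to integrins of phagocytes, a heavy chain of the inter-alpha-trypsin inhibitors (from Itih3), which binds hyaluronan of the extracellular matrix, and the serine protease HTRA1 (from Htra1). Mfge8 (ENSMUSG00000030605, chr7:79133768-79149060, minus strand) had 21.2, 27.1 and 14.5 normalized CPM in PAP TRAP, 199, 86.7 and 154 in cortex TRAP, 16.4, 10.5 and 6.18 in the synaptoneurosome input and 9.53, 2.26 and 11.3 in cortex input. The cortex TRAP libraries stood alone for Mfge8, and the other 3 groups overlapped their neighbours. Htra1 (ENSMUSG00000006205, chr7:130936111-130985660, plus strand) had 36.7, 36.1 and 70.1 normalized CPM in PAP TRAP, 162, 141 and 213 in cortex TRAP, 19.1, 15.8 and 31.7 in the synaptoneurosome input and 9.19, 8.04 and 15.1 in cortex input. Its groups were separate, and replicate 3 was its highest library in each of them. Itih3 (ENSMUSG00000006522, chr14:30908572-30923760, minus strand) had 7.20, 10.2 and 3.11 normalized CPM in PAP TRAP, 18.7, 11.9 and 6.21 in cortex TRAP, 2.13, 3.28 and 2.32 in the synaptoneurosome input and 3.43, 0.665 and 0.734 in cortex input. These are low levels, with 7, 11 and 12 counts in the synaptoneurosome inputs, and for Itih3 every pair of neighbouring groups overlapped.

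**Figure D3:**
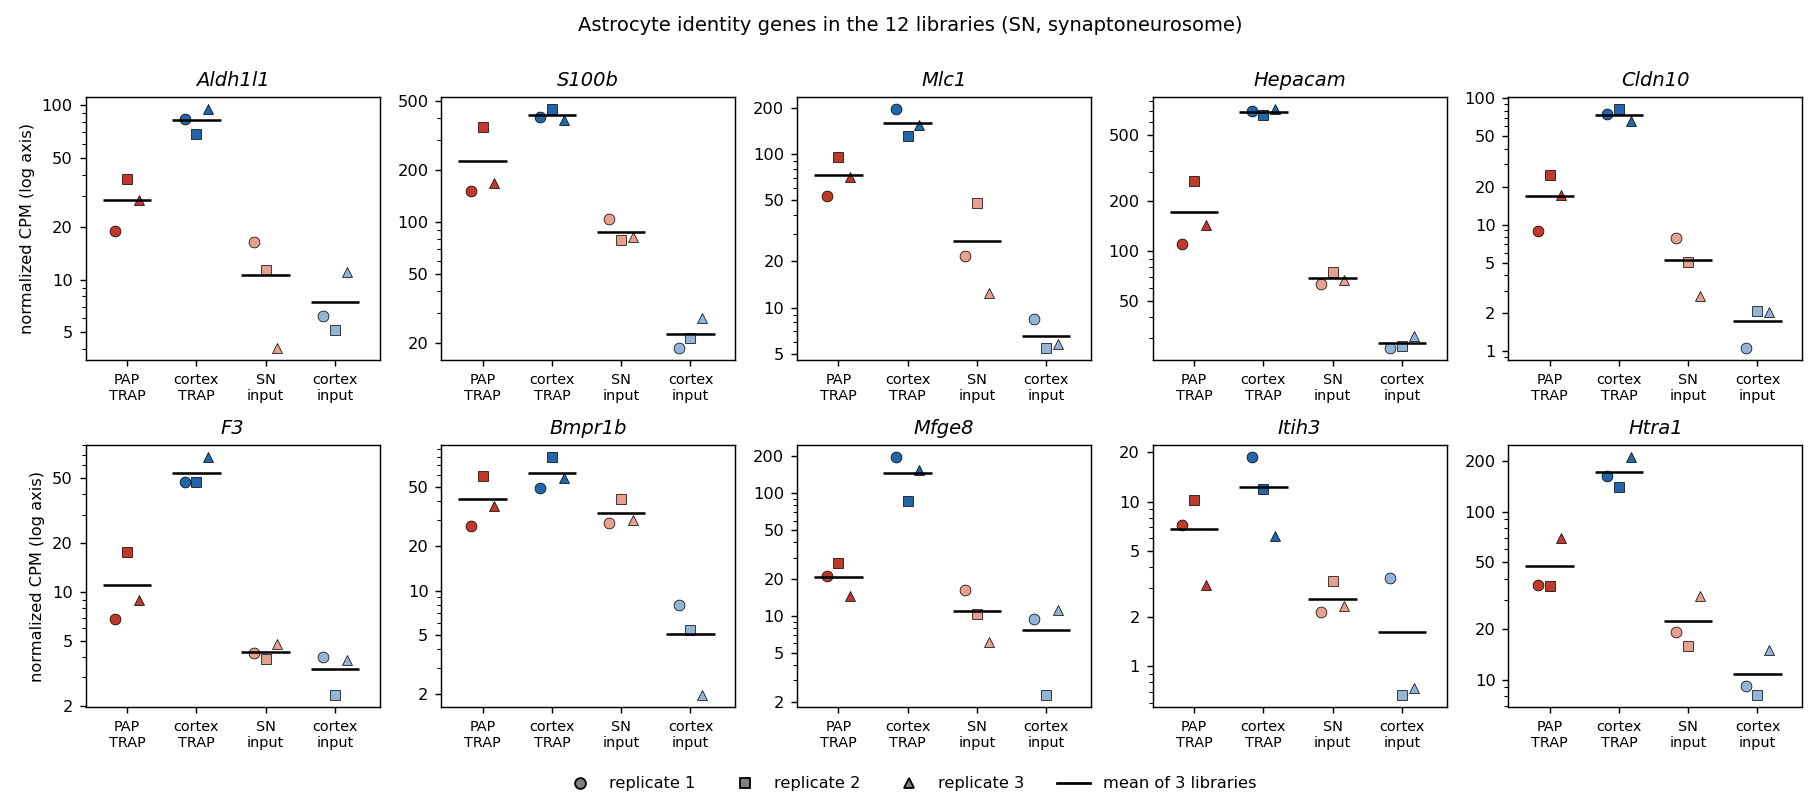
Normalized CPM (log axis) of each gene in the 12 libraries, with shapes for the replicates and bars for the mean of 3 libraries (SN, synaptoneurosome). In each panel cortex TRAP had the highest mean and cortex input the lowest, for Aldh1l1 82.1 and 7.44 normalized CPM.

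The 4 group means stood in 1 order for all 10 genes, highest in cortex TRAP, then PAP TRAP, then synaptoneurosome input, then cortex input. Of 40 other astrocyte genes 38 had this order, and of all 13364 genes tested 1223 did, 9.15%. Neighbouring groups in this order did not always differ beyond their spread, as the tests of each comparison give gene by gene. In such bulk libraries, fewer astrocytes and less of a message per astrocyte cannot be told apart.

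Cortex TRAP against cortex input compares the immunoprecipitate of the whole tissue with its input. Every gene of the set was higher in cortex TRAP, and Cldn10 had the largest fitted change, 43.3-fold (95% interval 20.8 to 90.2), which is a log2 change of 5.44 ± 0.50 (SE, 3 libraries per group, adjusted p = 9.84e-08, edgeR quasi-likelihood test with Benjamini-Hochberg adjustment over all genes tested, the source of every adjusted p that follows). Hepacam was 24.8-fold higher (4.63 ± 0.32, edgeR adjusted p = 4.12e-09) and Mlc1 changed by about as much (4.62 ± 0.44). S100b (4.19 ± 0.33) and Mfge8 (4.25 ± 0.53) came next, with F3 at 3.99 ± 0.45 and Htra1 at 3.99 ± 0.39. Bmpr1b was higher by 3.60 ± 0.46 and Aldh1l1 by 3.46 ± 0.46, an 11.02-fold difference. Itih3 had the smallest and least certain change, 2.92 ± 0.76 (edgeR adjusted p = 0.00506). A gene is called higher or lower here at an adjusted p under 0.05: 10 of the 10 were called higher, beside 15.9% of all genes tested, and for 10 of the 10 the groups did not overlap, beside 27.4% of all genes. The median log2 change was 4.09 for the set and 0.05 for all genes tested.

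Synaptoneurosome input against cortex input compares total RNA of the fraction with that of the tissue, before any pull-down. Part of the set was called higher in the fraction. Bmpr1b had the largest change, 6.46-fold (95% interval 3.39 to 12.3), a log2 change of 2.69 ± 0.45 (edgeR adjusted p = 0.000615). The endfoot partners Mlc1 (2.05 ± 0.41, edgeR adjusted p = 0.00280) and Hepacam (1.30 ± 0.28, edgeR adjusted p = 0.00531) and the calcium-binding S100b (1.96 ± 0.31, edgeR adjusted p = 0.000362) were also higher, as was Cldn10 (1.58 ± 0.48, edgeR adjusted p = 0.0423). Aldh1l1 had a log2 change of 0.49 ± 0.44 (95% interval -0.44 to 1.41, edgeR adjusted p = 0.537), and Mfge8 (0.50 ± 0.49), F3 (0.35 ± 0.44), Itih3 (0.66 ± 0.76) and Htra1 (1.05 ± 0.36, edgeR adjusted p = 0.0715) were not called either. In all 5 of 10 genes were called higher, beside 7.26% of all genes tested, and 6 of 10 did not overlap between the groups, beside 16.4%. The median log2 change was 1.17 for the set and -0.14 for all genes. The Cldn10 call was lost without any 1 of the cortex inputs, without synaptoneurosome input replicate 1 or 2 and with the compared groups fitted alone (edgeR adjusted p 0.0889 to 0.209). Htra1 was called with RLE scaling (edgeR adjusted p = 0.0469), with a block for the replicate number (edgeR adjusted p = 0.0158) and in DESeq2 (adjusted p = 0.0193). Neuron markers were called higher in the fraction for 3 of 14 and lower for 2 (2.07% of all genes were called lower), and microglial markers were called higher for 8 of 13, with a median log2 change of 2.61. Their part in these results was not tested.

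PAP TRAP against synaptoneurosome input compares the immunoprecipitate of the fraction with its input. Fitted changes lay between 0.94 and 1.73 on the log2 scale for 9 of the genes. Those called higher were Cldn10 (1.73 ± 0.46, edgeR adjusted p = 0.0363), Mlc1 (1.43 ± 0.39, edgeR adjusted p = 0.0428), S100b (1.34 ± 0.30, edgeR adjusted p = 0.0148) and Hepacam (1.34 ± 0.28, edgeR adjusted p = 0.0104), the last a 2.53-fold difference (95% interval 1.69 to 3.78). Aldh1l1 had a change as large, 1.44 ± 0.44, but was not called (edgeR adjusted p = 0.0685). F3 (1.36 ± 0.44, edgeR adjusted p = 0.0829), Itih3 (1.41 ± 0.76, edgeR adjusted p = 0.310), Htra1 (1.09 ± 0.35, edgeR adjusted p = 0.0852) and Mfge8 (0.94 ± 0.49, edgeR adjusted p = 0.293) were not called. Bmpr1b had the smallest change, 0.32 ± 0.42 (95% interval -0.55 to 1.18). Thus 4 of 10 were called higher, beside 3.0% of all genes tested, and 7 of 10 did not overlap, beside 12.2%. The median log2 change was 1.35 for the set and 0.06 for all genes tested. Myelinating oligodendrocyte markers took 0.804% to 1.08% of nuclear gene counts in PAP TRAP and 0.623% to 0.819% in its input. Of these 12, 1 was called higher and 3 lower, beside 3.0% and 1.53% of all genes. Neuron markers took 0.588% to 0.904% in PAP TRAP and 1.24% to 1.70% in the input. For microglial markers these shares were 0.0306% to 0.0442% and 0.0748% to 0.157%. How much untagged RNA the pull-down carried was not tested, since no group lacked the tag.

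The calls of the set in PAP TRAP against its input depended on single libraries. Without PAP TRAP replicate 2 the set had 1 call, Hepacam (0.90, edgeR adjusted p = 0.0482), its median log2 change was 0.95, and Bmpr1b turned to -0.032. Without synaptoneurosome input replicate 2 the calls numbered 2, without synaptoneurosome input replicate 3 they numbered 1, and without PAP TRAP replicate 3 they numbered 2, with Hepacam called each time. Aldh1l1 was called in DESeq2 (adjusted p = 0.0313), with no filter on low counts (edgeR adjusted p = 0.00959) and with the 37 mitochondrial genes left out (0.0466). Leaving these 37 genes out moved the median of all genes by 0.13 in this comparison, and the share of higher genes among those called was 66.3% in the fit reported here, 79.1% without mitochondrial genes and 54.7% in DESeq2. The set kept its direction under each of these scalings, with a median of 1.47 beside 0.17 for all genes when the mitochondrial genes were left out.

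PAP TRAP against cortex TRAP compares the immunoprecipitate of the fraction with that of the tissue. Most of the set was lower in PAP TRAP. Mfge8 had the largest fitted difference, with 20.9 ± 6.33 normalized CPM in PAP TRAP and 146 ± 56.5 in cortex TRAP (SD, n = 3 each), a log2 change of -2.81 ± 0.49 (edgeR adjusted p = 0.000199). F3 (-2.28 ± 0.42), Cldn10 (-2.13 ± 0.43), Hepacam (-1.998 ± 0.28, edgeR adjusted p = 1.78e-05) and Htra1 (-1.85 ± 0.35) were lower as well. Aldh1l1 averaged 28.4 ± 9.41 normalized CPM in PAP TRAP and 82.1 ± 13.6 in cortex TRAP, a log2 change of -1.53 ± 0.42 (edgeR adjusted p = 0.00907). Mlc1 (-1.13 ± 0.38, edgeR adjusted p = 0.0273) and S100b (-0.89 ± 0.29, edgeR adjusted p = 0.0258) had the smallest changes among those called. Bmpr1b, at -0.59 ± 0.41 (95% interval -1.45 to 0.27, edgeR adjusted p = 0.277), and Itih3, at -0.84 ± 0.71 (-2.32 to 0.64, edgeR adjusted p = 0.372), were not called.

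In this comparison 8 of 10 genes were called lower, beside 14.6% of all genes tested, and 8 of 10 did not overlap, beside 26.1%. The median log2 change was -1.69 for the set and -0.28 for all genes tested, and without the mitochondrial genes, which moved the median of all genes by 0.13, these were -1.56 and -0.11. Without PAP TRAP replicate 2 the count stayed at 8, with a median of -1.73. Without cortex TRAP replicate 3 or without PAP TRAP replicate 1 it was 5, since Aldh1l1 (edgeR adjusted p = 0.0548 and 0.0539), S100b (0.0819 and 0.124) and Mlc1 (0.0808 and 0.116) were then not called. S100b and Mlc1 also missed the threshold without cortex TRAP replicate 1 (0.0810 and 0.140) or 2 (0.130 and 0.0501) and without PAP TRAP replicate 3 (0.115 and 0.0743), and S100b with the compared groups fitted alone (0.144). Whether the changes differ between genes of the set was not tested.

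Markers of neurons, myelinating oligodendrocytes and microglia moved in the opposite direction in this comparison. Those of ependyma and choroid plexus did not (median log2 change -2.38, 4 of 9 passed the filter). The neuron markers took 0.588% to 0.904% of nuclear gene counts in PAP TRAP and 0.206% to 0.318% in cortex TRAP, and 13 of 14 were called higher in PAP TRAP, beside 19.3% of all genes tested, with a median log2 change of 2.88. Markers of myelinating oligodendrocytes took 0.804% to 1.08% in PAP TRAP and 0.0637% to 0.0937% in cortex TRAP, with 10 of 12 called higher and a median of 3.07. Microglial markers took 0.0306% to 0.0442% in PAP TRAP and 0.00424% to 0.00576% in cortex TRAP, with 7 of 13 called higher and a median of 2.79. No marker of these 3 lists was at 0 in every library of a group. The part of these cells in the lower levels of the astrocyte genes was not tested.

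The difference between both enrichments, that of PAP TRAP over synaptoneurosome input minus that of cortex TRAP over cortex input, was tested as an interaction term. It was negative for all 10 genes. Cldn10 had the largest difference on the log2 scale, -3.71 ± 0.64 (edgeR adjusted p = 0.000341), and Hepacam the smallest p, with -3.30 ± 0.40 (edgeR adjusted p = 8.69e-06). Mfge8 (-3.30 ± 0.69), Bmpr1b (-3.28 ± 0.60), Mlc1 (-3.18 ± 0.56), Htra1 (-2.90 ± 0.50), S100b (-2.85 ± 0.42) and F3 (-2.63 ± 0.60) followed. Aldh1l1 had a smaller one, -2.02 ± 0.61 (edgeR adjusted p = 0.0244), and Itih3 was not called at -1.51 ± 1.04 (95% interval -3.68 to 0.67, edgeR adjusted p = 0.346). In all 9 of 10 were called lower, beside 7.32% of all genes tested, with a median of -3.04 for the set and 0.03 for all genes. The same 9 of 10 passed without PAP TRAP replicate 2. The Aldh1l1 call was lost without any 1 of 7 libraries, cortex input replicate 1 or 2, cortex TRAP replicate 1 or 3, synaptoneurosome input replicate 1 or 2 or PAP TRAP replicate 1 (edgeR adjusted p 0.0541 to 0.104).

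**Figure D4:**
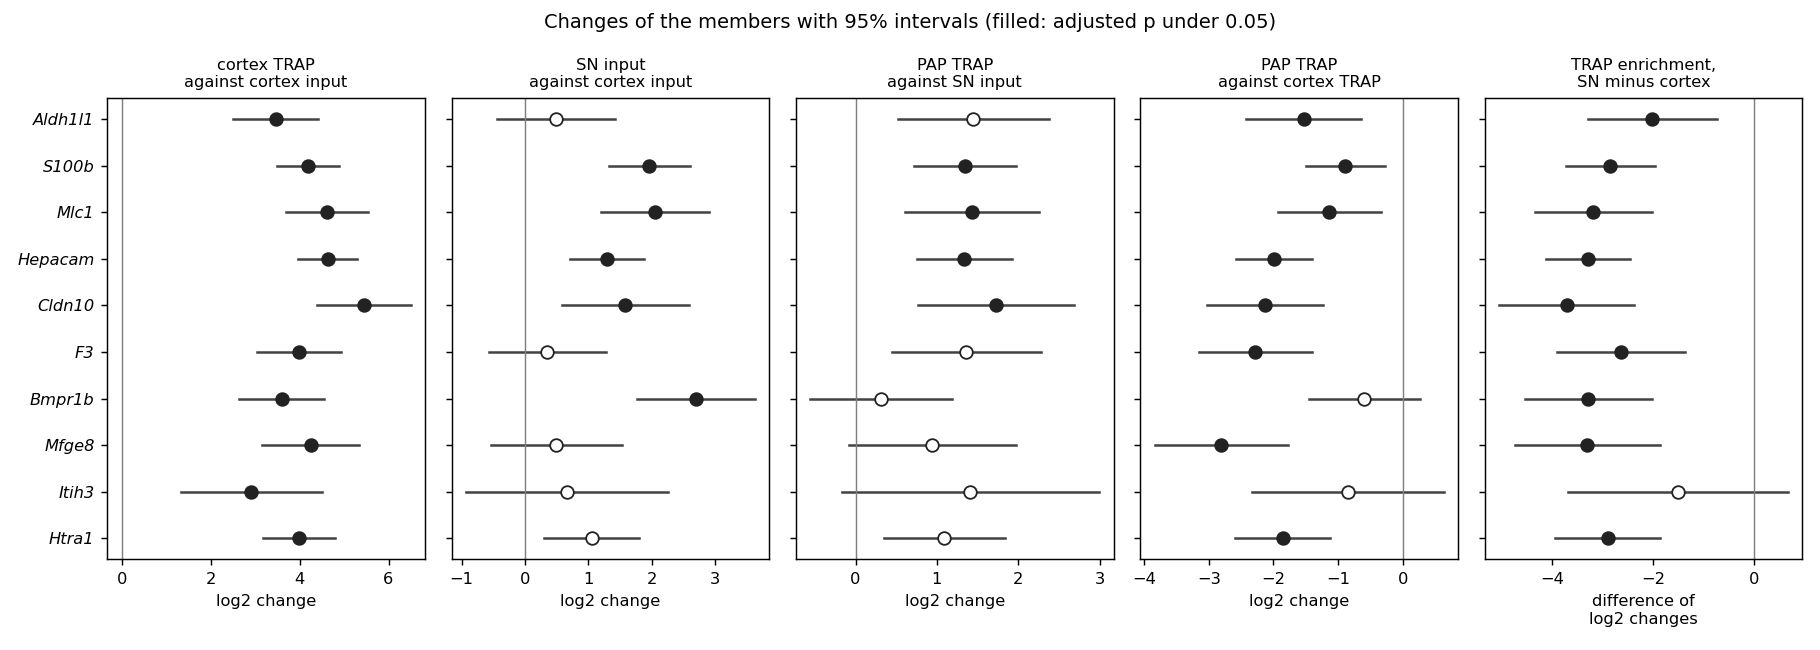
Log2 changes of the 10 genes with 95% intervals in the 5 comparisons, filled where the adjusted p was under 0.05 (SN, synaptoneurosome). All 10 points are filled for cortex TRAP against cortex input, 5 for synaptoneurosome input against cortex input, 4 for PAP TRAP against synaptoneurosome input, 8 for PAP TRAP against cortex TRAP and 9 for the difference of enrichments.

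**Figure D5:**
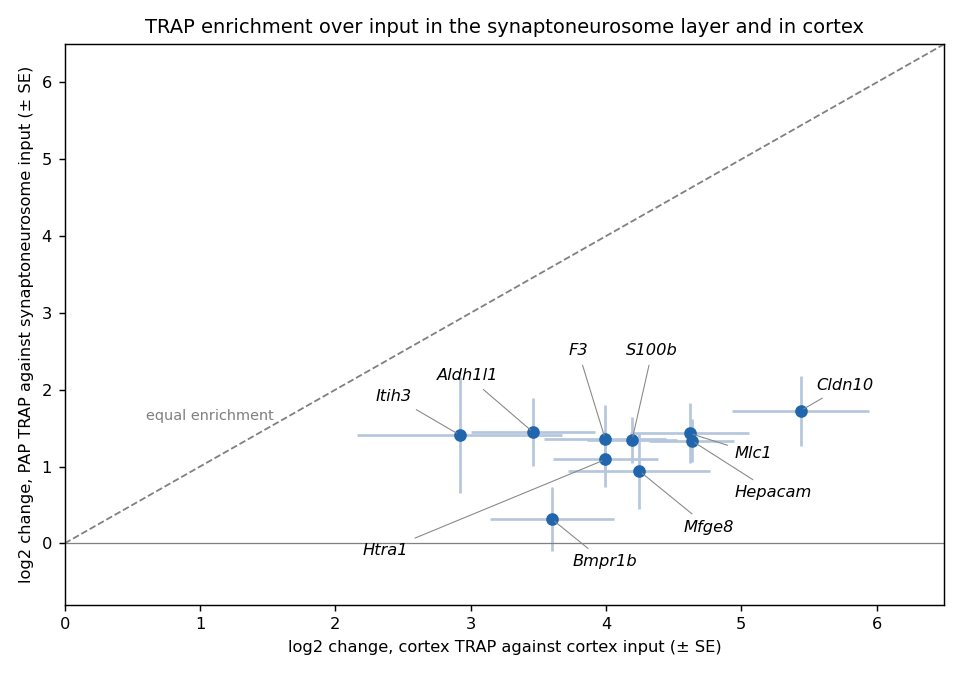
Log2 change over input in the synaptoneurosome fraction (PAP TRAP, vertical axis) and in cortex (horizontal axis) with SE, and a dashed line of equal change. All 10 genes lie below the line, Cldn10 at 1.73 and 5.44, Bmpr1b at 0.32 and 3.60.

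The likeness of other genes to these profiles was measured over the 12 libraries as the root mean square difference between log2 CPM values centred on their own mean, among the 5959 genes whose log2 CPM averaged 3 or more. The 5 genes nearest to Aldh1l1 were Gstm5 (0.365), Maob (0.367), Abhd4 (0.406), Mcur1 (0.421) and Smox (0.423). The 5 genes nearest to the mean profile of the set were Fam107a (0.212), Psd2 (0.236), Glul (0.265), Cst3 (0.276) and Aldoc (0.281). Within the set, F3 was the nearest to Aldh1l1 (0.590) and Bmpr1b the farthest (1.25). Among the 5959 genes F3 held rank 34 from Aldh1l1 and Bmpr1b rank 1263. Hepacam was the nearest to the mean of the set (0.273), a mean that includes each member. All of these distances share the same 12 libraries.

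Relatives of these genes were followed through lists of their pathways and families. Over all genes tested, 15.9% were called higher and 19.5% lower in cortex TRAP against input. In synaptoneurosome input against cortex input 7.26% were called higher, and in PAP TRAP against its input 3.0%. In PAP TRAP against cortex TRAP 14.6% were called lower and 19.3% higher, and in the difference of enrichments 7.32% were called lower. Of 40 other astrocyte genes, 40 were called higher in cortex TRAP against its input, 32 in synaptoneurosome input against cortex input and 12 in PAP TRAP against its input (6 without PAP TRAP replicate 2), while 32 were called lower in PAP TRAP against cortex TRAP and 37 in the difference of enrichments. Their median log2 changes were 4.18, 1.84, 0.84, -1.31 and -3.24. In cortex TRAP against cortex input Aldoc, a glycolytic enzyme, was higher by 4.71 ± 0.30 and Ndrg2, a cytosolic protein abundant in astrocytes, by 4.52 ± 0.28. In PAP TRAP against its input Aldoc (1.56 ± 0.26) and Glul, which makes glutamine (1.47 ± 0.25), were called. In PAP TRAP against cortex TRAP the transcription factor gene Sox9 had -2.85 ± 0.29 and the receptor gene Gpr37l1 -2.87 ± 0.34, while the glutamate transporter gene Slc1a2 had 0.36 ± 0.24 (edgeR adjusted p = 0.270).

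Of the other S100 genes, 14 are listed and 7 were tested. Of these 6 were called higher in cortex TRAP against input, 1 in synaptoneurosome input against cortex input (S100a1, lost without any 1 library of either group) and 4 in PAP TRAP against its input, and 5 were called lower in PAP TRAP against cortex TRAP. The median of the 7 was 4.35 in cortex TRAP against input and -1.98 in PAP TRAP against cortex TRAP, where all genes tested had medians of 0.05 and -0.28. S100a4 and S100a11 passed the filter on low counts through cortex TRAP. They averaged 8.05 and 10.4 normalized CPM there, against 0.0998 and 0.142 in cortex input. The filter thus set part of these counts and medians in advance. S100a1, another calcium-binding member, averaged 65.8 normalized CPM in PAP TRAP, 223 in cortex TRAP, 20.4 in the synaptoneurosome input and 9.20 in cortex input, with log2 changes of 1.69 ± 0.32 for PAP TRAP against its input and -1.76 ± 0.32 for PAP TRAP against cortex TRAP. S100a16 was higher by 2.65 ± 0.59 in PAP TRAP against its input (1.98 and not called without PAP TRAP replicate 2, and not called without synaptoneurosome input replicate 1 or 3), and S100a13 by 4.35 ± 0.62 in cortex TRAP against its input. S100a11 had 3, 4 and 3 counts in PAP TRAP and 440, 22 and 73 in cortex TRAP, a fitted change of -5.18 ± 1.13 that was -3.32 and not called without cortex TRAP replicate 1 (edgeR adjusted p = 0.0813). For folate metabolism, the pathway of Aldh1l1, 19 of 20 enzymes and transporters were tested. In cortex TRAP against input 4 were called higher and 1 lower, beside 15.9% and 19.5% of all genes, with a median of 0.49, and in PAP TRAP against cortex TRAP 3 were called lower, near the 14.6% of all genes, with a median of -0.87. The call of 1 of these, Dld, which makes a subunit of the glycine cleavage system, was lost without cortex TRAP replicate 1 (edgeR adjusted p = 0.133), without PAP TRAP replicate 1 (0.0684) and with the compared groups fitted alone (0.0708). Gcsh, of the glycine cleavage system, was higher by 3.07 ± 0.43 in cortex TRAP against input, and the folate hydrolase gene Folh1 by 3.60 ± 0.59. Shmt2, a mitochondrial serine hydroxymethyltransferase, had 60, 88 and 57 counts in PAP TRAP and 4152, 386 and 341 in cortex TRAP (log2 change -4.08 ± 0.81), with cortex TRAP replicate 1 far above the other libraries; without it the change was -2.08 (edgeR adjusted p = 0.0399). Mthfd1l, a mitochondrial enzyme of the pathway, was lower in cortex TRAP against input, with 1, 4 and 21 counts in cortex TRAP and 46, 99 and 121 in cortex input, a call lost without cortex input replicate 2 or 3 and without cortex TRAP replicate 1 or 2.

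Of 12 partners of MLC1 and GlialCAM, 10 were tested. In cortex TRAP against input 7 were called higher and 1 lower, in synaptoneurosome input against cortex input 7 were called higher, and in PAP TRAP against cortex TRAP 4 were called lower and 1 higher. Their medians in these comparisons were 2.59, 1.52 and -0.39. Kcnj10, Atp1b2, Gja1 and Aqp4 of this list are also among the 40 other astrocyte genes, so the 2 sets of counts are not separate. The 1 called lower in cortex TRAP against input was below the 19.5% of all genes. The 1 called higher in PAP TRAP against cortex TRAP was below the 19.3% of all genes. Kcnj10, the inwardly rectifying potassium channel of astrocytes, averaged 651 normalized CPM in PAP TRAP and 718 in cortex TRAP (log2 change -0.14 ± 0.29, edgeR adjusted p = 0.733). Atp1b2, a sodium pump subunit of glia, averaged 878 in PAP TRAP and 3207 in cortex TRAP (-1.87 ± 0.24). The gap junction gene Gja1 (-1.59 ± 0.35) and the water channel gene Aqp4 (-1.28 ± 0.33) were lower too. Atp1b1, a sodium pump subunit abundant in neurons, went the other way, with 959 in PAP TRAP and 154 in cortex TRAP (2.64 ± 0.24). In PAP TRAP against its input Atp1b1 was called lower (-1.001 ± 0.22, edgeR adjusted p = 0.0151), beside 1.53% of all genes called lower. The call was lost without PAP TRAP replicate 2 (edgeR adjusted p = 0.0554) and without synaptoneurosome input replicate 3 (0.0712). For Clcn2, the chloride channel that GlialCAM binds, the log2 change in PAP TRAP against cortex TRAP was 0.62 ± 0.57 (edgeR adjusted p = 0.419); it was picked for its role after its value was seen.

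For BMP signalling, 20 of 24 receptors, ligands and effectors were tested. In cortex TRAP against input 8 were called higher and 2 lower, and in PAP TRAP against cortex TRAP 6 were called lower and 2 higher, with medians of 0.61 and -0.76. Over all genes 15.9% were called higher and 19.5% lower in cortex TRAP against input, and 14.6% lower and 19.3% higher in PAP TRAP against cortex TRAP, so the 2 lower in the first and the 2 higher in the second were below the share of all genes. The type I receptor gene Bmpr1a, like Bmpr1b, was higher in cortex TRAP against input (2.10 ± 0.35) and in synaptoneurosome input against cortex input (1.65 ± 0.34), and in PAP TRAP against cortex TRAP it had -0.64 ± 0.33 (edgeR adjusted p = 0.146). The type II receptor gene Bmpr2 ran the other way, lower in cortex TRAP against input (-0.998 ± 0.21) and higher in PAP TRAP against cortex TRAP (1.58 ± 0.21), as did the activin receptor gene Acvr2a (-2.34 ± 0.40 and 2.36 ± 0.41). The Id genes, transcriptional targets of BMP signalling, had large changes in PAP TRAP against cortex TRAP: Id3 averaged 6.95 normalized CPM in PAP TRAP and 186 in cortex TRAP (-4.74 ± 0.38), and Id2 had -3.07 ± 0.35. In PAP TRAP against its input Id4 was called higher (1.89 ± 0.46), and Bmpr2 (-0.82 ± 0.21) and the ligand gene Bmp4 (-4.18 ± 1.18) lower. These 3 calls were lost without synaptoneurosome input replicate 1 or 3 and without PAP TRAP replicate 3. The Id4 call was also lost without PAP TRAP replicate 2 and with the compared groups alone, the Bmpr2 call also without PAP TRAP replicate 1 or synaptoneurosome input replicate 2, with no filter and with the compared groups alone, and Bmp4, at 4, 2 and 5 counts in PAP TRAP, was lost without any 1 library of either group (edgeR adjusted p 0.0653 to 0.208), with the replicate block (0.0663) and with mitochondrial genes left out (0.0503).

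Around MFG-E8, 17 of 17 genes of its receptors, relatives and the engulfment machinery were tested. In cortex TRAP against input 11 were called higher and 3 lower, and in PAP TRAP against cortex TRAP 4 were called higher and 3 lower, with medians of 1.36 and -0.36. The last 3 of these counts were near the 19.5%, 19.3% and 14.6% of all genes. The phagocytic receptor genes Mertk (4.60 ± 0.46) and Axl (4.33 ± 0.49) were higher in cortex TRAP against input. Mertk is also among the 40 other astrocyte genes. In PAP TRAP against cortex TRAP the Mertk change was -1.07 ± 0.39 (edgeR adjusted p = 0.0431) and the Axl change -1.05 ± 0.42 (edgeR adjusted p = 0.0638). Edil3, which makes a relative of MFG-E8, was lower in cortex TRAP against input (-3.76 ± 0.42), lower in PAP TRAP against its input (-1.52 ± 0.38) and higher in PAP TRAP against cortex TRAP (3.88 ± 0.42), while Mfge8 was higher in the first and lower in the last. The Edil3 call in PAP TRAP against its input was lost without PAP TRAP replicate 2 or 3 and without any 1 of the synaptoneurosome inputs (edgeR adjusted p 0.0701 to 0.101). The engulfment adaptor gene Gulp1 had 8, 21 and 17 counts in PAP TRAP and 283, 237 and 144 in cortex TRAP (-3.55 ± 0.82). Tyro3, the receptor gene related to Mertk and Axl, had 403, 189 and 500 counts in PAP TRAP and 29, 2 and 65 in cortex TRAP (3.95 ± 0.63).

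The smaller families were measured less well. Of 10 genes of the inter-alpha-trypsin inhibitors and hyaluronan, 4 were tested, with 1 called higher and 2 lower in cortex TRAP against input and 2 called higher in PAP TRAP against cortex TRAP, beside 15.9%, 19.5% and 19.3% of all genes. Of these Itih2, another heavy chain gene, had 7, 9 and 61 counts in PAP TRAP, 1, 0 and 0 in cortex TRAP and 36, 0 and 19 in cortex input. Cortex TRAP and cortex input overlapped, and the Itih2 call between them was lost without cortex input replicate 1 and without cortex TRAP replicate 2 or 3 (edgeR adjusted p 0.0638 to 0.0765). The call in PAP TRAP against cortex TRAP was lost without PAP TRAP replicate 3 (0.0607). Itih5, also a heavy chain gene, averaged 61.0 normalized CPM in PAP TRAP, 55.6 in cortex TRAP, 39.1 in the synaptoneurosome input and 6.11 in cortex input, so that it was higher in cortex TRAP against input (3.18 ± 0.37) and in synaptoneurosome input against cortex input (2.68 ± 0.36) and changed by 0.13 ± 0.33 in PAP TRAP against cortex TRAP (95% interval -0.57 to 0.83). Has3, a hyaluronan synthase gene, had 5, 12 and 9 counts in PAP TRAP, 0 in each cortex TRAP library and 26, 88 and 14 in cortex input. Of 13 partners of tissue factor 6 were tested, and Serpine2, an inhibitor of thrombin made by glia, was the 1 called in cortex TRAP against input (3.21 ± 0.31). That 1 of 6 was near the 15.9% of all genes called higher. Serpine2 averaged 236 normalized CPM in PAP TRAP and 244 in cortex TRAP (log2 change -0.05 ± 0.28, edgeR adjusted p = 0.912). Of 15 other claudin genes, 3 were tested, and Cldn11, a claudin of myelin, had 5.62 normalized CPM in cortex TRAP and 26.7 in cortex input (-2.26 ± 0.42). Cldn1 was also called lower there, at 3, 0 and 0 counts in cortex TRAP and 26, 34 and 17 in cortex input, a call lost without cortex input replicate 2 and without cortex TRAP replicate 2 or 3 (edgeR adjusted p 0.0660 to 0.0686). These 2 of 3 claudins called lower stood beside 19.5% of all genes. Of 3 other HtrA protease genes 2 were tested, and Htra3 was higher in cortex TRAP against input (3.73 ± 0.97) at 129, 66 and 35 counts in cortex TRAP and 8, 7 and 3 in cortex input. This 1 of 2 called higher stood beside 15.9% of all genes.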

How the data were processed

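RNA-seq counts per gene were deposited by the authors, 1 file of raw counts for each of 12 libraries. The submitters' processing notes name Trimmomatic 0.32, Bowtie2, STAR and HTSeq without their roles, and per the labels' protocols cDNA was amplified by SPIA from 2 ng of RNA. The sources used here do not give the genome build, the annotation or whether counting used strand. Without molecular identifiers, reads are not independent molecules, so the floors for a count of 0 cover counting error only. The intervals come from the quasi-likelihood fit and also include the spread between libraries of a group. Entries that name no gene (20.3% to 55.5% of a library) were left out, leaving 4918113 to 17553985 gene counts. A count of 0 allows up to 3 counts, 0.166 to 0.912 normalized CPM.

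Counts were tested in R 4.3.3 with edgeR 4.0.16 (limma 3.58.1), filterByExpr (minimum count 10, total 15), TMM scaling, 1 mean per group over all 12 libraries, and a quasi-likelihood F test for 5 comparisons, with Benjamini-Hochberg adjustment and a threshold of 0.05. Alternatives were RLE scaling, no filter, DESeq2 1.42.0, a replicate block, mitochondrial genes left out, the compared groups alone, and each library left out. The script was tested on simulated data. No 2 libraries of a group agreed within sampling noise (chi-square per degree of freedom at least 18.5 over 12 pairs). Symbols were given to 40254 of 41388 identifiers.

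Members and lists (other and defining astrocyte genes, folate enzymes, S100 genes, MLC1 and GlialCAM partners, BMP signalling, inter-alpha-trypsin inhibitors, HtrA proteases, claudins, MFG-E8 and engulfment, tissue factor partners, and markers of neurons, myelinating oligodendrocytes, oligodendrocyte precursors, microglia, endothelium, mural cells, and ependyma with choroid plexus) were chosen with earlier results of these data known. Besides the 10 members, the text names up to 2 higher and 2 lower called genes per family and comparison, by smallest p, whose values in other comparisons may be given too, and the 5 genes most like Aldh1l1 or the mean of the set. Log2 CPM for likeness used a prior count of 2. The values of 1 gene among the partners of MLC1 and GlialCAM are not reported here.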

Additional observations from a re-analysis of the deposited data

Results flagged for a closer look

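The enrichment over input differed between the synaptoneurosome fraction and cortex, by the test of the difference itself, for 9 of the 10 genes. On the log2 scale, the enrichment in the fraction minus that in cortex was -3.71 for Cldn10, -3.30 for Mfge8, -3.30 for Hepacam, -3.28 for Bmpr1b, -3.18 for Mlc1, -2.90 for Htra1, -2.85 for S100b, -2.63 for F3 and -2.02 for Aldh1l1. Of all genes tested, 7.32% were called in this direction. So were 37 of 40 other astrocyte genes, with a median of -3.24, so the difference was not particular to the set. It also holds the change between the 2 inputs. The set median was 1.17 in synaptoneurosome input against cortex input and -1.69 in PAP TRAP against cortex TRAP. Mitochondrial transcripts took 40.9% ± 6.08 of gene counts in PAP TRAP, 1.13% ± 0.135 in cortex TRAP, 88.5% ± 4.20 in the synaptoneurosome input and 48.3% ± 3.01 in cortex input (SD, n = 3 each), and with mitochondrial genes left out all 9 were still called. Leaving them out changes the scaling and not the nuclear depth, and the part of mitochondrial content was not tested. The Aldh1l1 call was lost in 7 of 17 alternatives (edgeR adjusted p up to 0.104).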

How the results depend on the processing

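Of 650 values of the 10 members under alternatives, 598 kept their direction and their side of the threshold, 40 lost a call, 11 gained one, and 1 reversed, Bmpr1b in PAP TRAP against synaptoneurosome input, at -0.032 to 0.54 with 1 library left out (-0.032 without PAP TRAP replicate 2). All 120 values of cortex TRAP against cortex input kept both. DESeq2 called 7 members higher in PAP TRAP against its input and the compared groups alone called 2, against 4 as reported; leaving out 1 library gave 1 to 4. Members lower in PAP TRAP against cortex TRAP numbered 5 to 8 with 1 library left out, members higher in synaptoneurosome input against cortex input 4 to 5, and members lower in the difference of enrichments 8 to 9. Over all genes, synaptoneurosome input against cortex input had 1246 calls, 2035 in DESeq2, 2251 with the compared groups alone and 608 to 1025 with 1 library left out. PAP TRAP against its input had 605 calls, 1253 in DESeq2 and 292 to 521 with 1 library left out. With 1 library left out, a group of 2 borrows its spread from the other groups. Leaving out mitochondrial genes moved the median of all genes by 0.11 in the difference of enrichments, and fitting the compared groups alone moved it by 0.17 in PAP TRAP against cortex TRAP. Per kilobase of the longest transcript, cortex TRAP levels were 34.9 for Cldn10, 29.0 for F3, 84.3 for Htra1 and 62.9 for Mfge8. The cause of these shifts was not tested. The difference of enrichments has no value with 2 groups alone. Depth limited Itih3, Cldn10 and F3 most in the synaptoneurosome inputs, where they had 7 to 26 counts.

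The labels do not say that a replicate number marks a shared animal or day, and the deviations of same-numbered libraries correlated weakly across genes, at 0.0115 to 0.0639, with 0 of 12 pairs over 0.1, so the libraries were not treated as paired. Different-numbered pairs gave -0.0591 to 0.0246, 18 of 24 below 0, and in 23 of 24 cases, counting each library once per comparison, a library correlated best with its own number, a hint from the data and not from the design. Deviations were taken from the mean of each group, so same-numbered values above 0 push the different-numbered ones below 0. These counts are therefore not separate from the same-numbered correlations. With a replicate block 10 members were called higher in cortex TRAP against input, 6 in synaptoneurosome input against cortex input and 5 in PAP TRAP against its input, and 8 were called lower in PAP TRAP against cortex TRAP and 9 in the difference of enrichments. The block gave 4770, 1358, 653, 4564 and 2726 calls over all genes in these 5 comparisons.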

Other observations

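Markers of 4 other cell types made up little of any library. Oligodendrocyte precursor markers took 0.0273% to 0.0314% of nuclear gene counts in PAP TRAP, 0.0239% to 0.0353% in cortex TRAP, 0.0267% to 0.0342% in synaptoneurosome input and 0.0171% to 0.0262% in cortex input. In PAP TRAP against cortex TRAP 3 of the 7 tested were called higher and 1 lower. Over all genes 19.3% were called higher and 14.6% lower, so the 1 lower was near that share. Endothelial markers took 0.00148% to 0.00311% in PAP TRAP and 0.000185% to 0.000219% in cortex TRAP. Of the 10 listed only 4 passed the filter on low counts, and 3 of these were called higher in PAP TRAP. Mural cell markers took 0.00504% to 0.0106% in PAP TRAP and 0.00424% to 0.00794% in cortex TRAP, with 2 of 4 called higher and 1 lower, beside the same shares of all genes. Ependymal and choroid plexus markers took 0.0017% to 0.00794% in PAP TRAP and 0.0302% to 0.0919% in cortex TRAP. Of the 9 listed 4 were tested, with 2 called lower. A marker that passes the filter only through the group where it is high tends to be called higher there. The endothelial, mural and ependymal counts therefore describe the kept markers alone. The 10 defining astrocyte markers, all of which are also among the 40 other astrocyte genes, were called lower in PAP TRAP against cortex TRAP for 8 of 10.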
